A study of Mus musculus with 16 samples.

Results

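The genes described here encode the cytosolic factors that start and carry out protein synthesis, with the poly(A)-binding protein Pabpc1 and the translation-associated protein Tpt1. They were taken by symbol: every array probe annotated with exactly 1 gene whose symbol begins with Eif or Eef and a digit, or is Pabpc1 or Tpt1, leaving out the Eif2ak kinases and the Eif4ebp inhibitors. This gave 43 genes on 65 of 20355 probes, and all 43 were found under their Entrez Gene IDs in the RefSeq mouse annotation (GRCm38.p6). Of these, 37 genes had values on enough arrays to be tested among 12420 features, the genes and unnamed probes that passed the filter on missing values. No probe carried Eef2k, Eif2s1 or Eif4g1.

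NIH3T3 is an established line of mouse fibroblasts, and azacytidine is a cytidine analog that blocks DNA methyltransferases. The first group was Erbb2-transfected NIH3T3 cells given 10 µM azacytidine, on 8 arrays, and the second the same cells given 5 µM, on 4 arrays. The third group was NIH3T3 cells without the transfected gene given 10 µM, on 4 arrays. Each 2-colour cDNA array compared treated cells with untreated cells of the same line, so untreated Erbb2 cells were the reference of both Erbb2 groups. The promoter that drives Erbb2, the number of transfected clones and the length of treatment are unstated in the sources used here. The protocol labels speak of organs and of a reference pool from animals rather than of cell lines. Nothing says that arrays held separate cultures, so p-values measure the spread between arrays, which may be technical.

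Values are read as log2 ratios, treated over untreated; the log base is inferred, and every fold rests on it. Ratios carry no level of a transcript, so neither the fibroblast identity of the cells nor the Erbb2 transgene, present in both channels, could be checked by level. The direction is not stated. Values were assumed to be Cy5 over Cy3, and the arrays with treated RNA in Cy3, 50% of each group, had their sign turned. The basis of the turning is that arrays of opposite dye arrangement correlated below arrays of the same arrangement in every group over the features tested. Mean Pearson's r was 0.00353 against 0.0306 in Erbb2 cells at 10 µM, -0.00604 against 0.0717 at 5 µM, and it was -0.0857 against 0.135 in untransfected cells. These correlations would be the same for Cy3 over Cy5, so they cannot settle the sign. Ratios already turned before deposit could give the same order through dye effects on single probes. The correlations therefore also cannot show that turning was needed. If the deposited ratios ran the other way, every sign below would turn. If arrays were turned before deposit, no further turning would be due. Without turning, 0 factors passed in any group, where 0.0161% (Erbb2, 10 µM), 0% (Erbb2, 5 µM) and 0.0322% (untransfected) of all features passed. The medians of the factors were then 0.0084, 0.018 and -0.031. In the untransfected group the labels give both channels 1 dye. The dye of channel 1 was taken, and with the other dye the 7 calls of that group point the opposite way. Each array held 16153 to 18507 ratios, and precision is limited by how many arrays there are. Of 9 fibroblast markers, Sparc rose by 0.68 ± 0.11 in Erbb2 cells at 10 µM (limma, adjusted p = 0.00335). In untransfected cells Fn1 fell by 1.63 ± 0.20, Col1a2 by 0.79 ± 0.19 and Vim by 0.55 ± 0.14 (limma, adjusted p = 0.000396, 0.0403 and 0.0493), and 1 of 5 epithelial markers (Krt8, 1.13 ± 0.27) and 1 of 3 blood markers (Tyrobp, -0.68 ± 0.16) also passed. Their part in the results below was not tested, and fewer cells of a type and less RNA per cell cannot be told apart in bulk RNA.

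Translation of an mRNA starts when the eIF4 factors bind its cap, eIF2 brings the initiator tRNA to the small ribosomal subunit, and eIF3 holds the complex together while it scans for the start codon. Elongation then repeats a cycle in which eEF1A delivers an aminoacyl-tRNA, the eEF1B subunits recharge eEF1A with GTP, and eEF2 moves the ribosome along. The mRNAs of the elongation factors, Pabpc1 and Tpt1, like those of ribosomal proteins, are known for a pyrimidine tract at their 5' end that ties their translation to growth signals.

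At 8 genes the ratio passed the test in at least 1 group. Promoter entries existed in the RefSeq table for 32 of the 43 factors and for 6 of these 8. The 150 bases before their annotated starts are shown because azacytidine acts on methylation of cytosines that precede guanine. They lie on GRCm38.p6 at chr9:78481725-78481874, minus strand (Eef1a1), chr1:63176681-63176830, plus strand (Eef1b2), chr10:81176481-81176630, plus strand (Eef2), chrX:94212652-94212801, minus strand (Eif2s3x), chr2:105017028-105017177, minus strand (Eif3m), and chr14:75845106-75845255, plus strand (Tpt1). Capitals mark each CG.
Eef1a1: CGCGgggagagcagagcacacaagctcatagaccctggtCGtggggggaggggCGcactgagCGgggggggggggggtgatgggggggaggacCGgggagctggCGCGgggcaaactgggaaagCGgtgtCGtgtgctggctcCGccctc
Eef1b2: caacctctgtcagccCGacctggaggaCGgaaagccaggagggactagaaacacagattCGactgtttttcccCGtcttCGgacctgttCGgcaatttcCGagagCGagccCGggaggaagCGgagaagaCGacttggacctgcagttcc
Eef2: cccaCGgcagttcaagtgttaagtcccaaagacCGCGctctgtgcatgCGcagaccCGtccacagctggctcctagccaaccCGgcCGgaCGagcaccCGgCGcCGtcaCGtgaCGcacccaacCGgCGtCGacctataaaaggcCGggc
Eif2s3x: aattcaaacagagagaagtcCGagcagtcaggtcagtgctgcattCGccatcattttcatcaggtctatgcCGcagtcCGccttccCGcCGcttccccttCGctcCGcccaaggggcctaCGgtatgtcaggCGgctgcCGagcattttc
Eif3m: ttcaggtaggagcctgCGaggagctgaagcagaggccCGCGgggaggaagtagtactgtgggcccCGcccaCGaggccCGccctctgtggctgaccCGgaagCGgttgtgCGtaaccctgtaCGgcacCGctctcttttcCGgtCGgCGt
Tpt1: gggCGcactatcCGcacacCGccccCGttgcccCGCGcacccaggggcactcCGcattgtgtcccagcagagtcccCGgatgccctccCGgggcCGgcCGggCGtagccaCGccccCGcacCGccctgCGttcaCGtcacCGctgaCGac
These 6 windows held 11 (Eef1a1), 11 (Eef1b2), 17 (Eef2), 11 (Eif2s3x), 14 (Eif3m) and 19 (Tpt1) CG. The median was 12.5 CG over the 6, 13.0 over the 23 tested factors that passed in no group, 13.0 over all 32 factors with an entry and 4.0 over 27020 genes. Called and uncalled factors had similar median counts, both above that of all genes. The letters TATAAA, searched on both strands, stood in 1 of the 6 (Eef2) and in 2 of the 32, 6.25%, against 8.08% of all genes. Promoter methylation was not measured on these arrays.

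With the dyes as read, most of the factors had a ratio below 0 in all 3 groups. In Erbb2 cells at 10 µM, 28 of 37 fitted values were below 0, with a median of -0.23 on the log2 scale, against 50.6% of all features and a median of -0.0034. At 5 µM 25 of 37 were below 0, with a median of -0.19, against 52.3% and -0.018. In untransfected cells at 10 µM 32 of 37 were below 0, with a median of -0.37, against 46.9% and 0.031. The share below 0 on single arrays of Erbb2 cells at 10 µM was 61.1% to 77.1% of the factors and 48.5% to 52.1% of all features. It was 62.2% to 82.4% of factors and 49.5% to 53.0% of features at 5 µM, and 75.7% to 86.5% of factors and 47.5% to 50.1% of features on the untransfected arrays. With the dyes as read, each of the 16 arrays had a higher share of factors than of features below 0. With the other dye on the untransfected arrays, that group would have 5 of 37 factors below 0 and a median of 0.37, and its 4 arrays would go the other way. The mean deposited ratio changed sign between the dye arrangements for 24 of 37 factors against 49.6% of features (Erbb2, 10 µM), for 25 against 51.0% (Erbb2, 5 µM) and for 30 against 58.1% (untransfected).

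**Figure D1:**
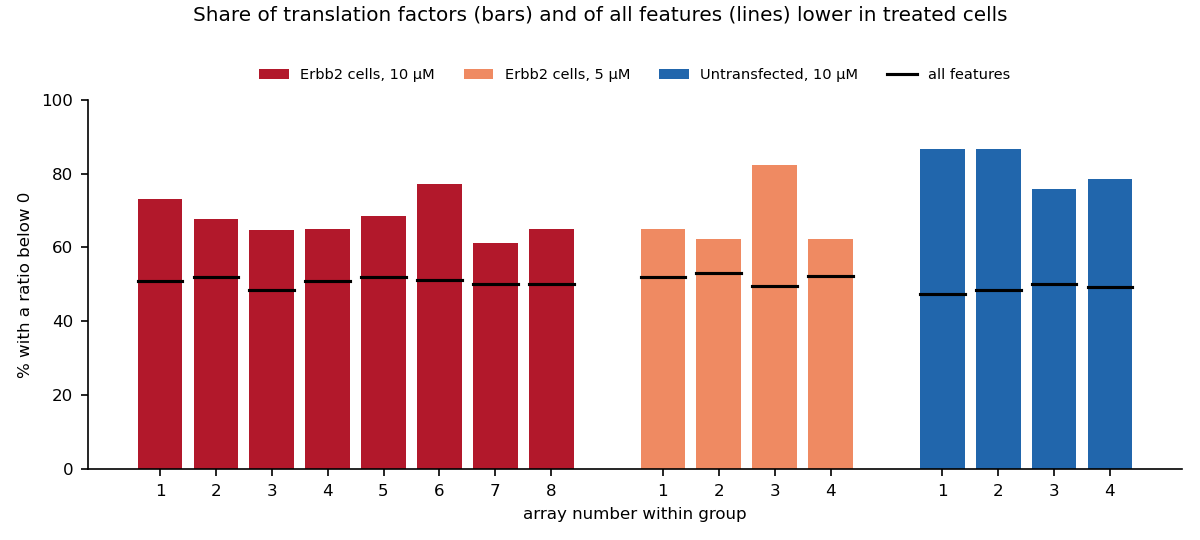
Percent of translation factors (bars) and of all features (black lines) with a log2 treated over untreated ratio below 0 on each of the 16 arrays, by group. With the dyes as read, the bar ends above the line on every array, with bars from 61.1% to 86.5%, and the 4 untransfected arrays would turn with the other dye.

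A factor was called where limma's moderated test gave p under 0.05 after Benjamini-Hochberg adjustment across the 12420 features. In Erbb2 cells at 10 µM 3 factors fell (Eef1b2, Eef2 and Tpt1) and 0 rose, where 1.26% of all features passed, 0.862% as lower and 0.403% as higher. At 5 µM 0 factors passed by limma (the lowest adjusted p was 0.323, and 6 of 37 had an unadjusted p under 0.05, as did 6.33% of all features), where 0.209% of all features passed, 0.0322% as lower and 0.177% as higher. In untransfected cells 7 factors fell (Eef1a1, Eef1b2, Eef1g, Eif2s3x, Eif3m, Pabpc1 and Tpt1) and 0 rose, where 2.73% of all features passed, 2.13% as lower and 0.596% as higher. Below 0 on every array of the group were 6 factors and 2.04% of all features (Erbb2, 10 µM), 11 factors and 10.2% (Erbb2, 5 µM), and 22 factors and 13.3% (untransfected). Eef1b2, Eef2 and Eif3c were below 0 on all 16 arrays, as were 0.886% of all features. These counts moved with the set of arrays, as did the shares of all features called. In Erbb2 cells at 10 µM only Eef1b2 passed without any 1 of the 5 µM arrays or without untransfected array 4. The same held without array 7 of the 10 µM Erbb2 group. In these fits 1.05% to 1.29% of all features passed there. Without array 1, 2, 3 or 4 of the untransfected group 3, 3, 3 and 2 factors passed in that group. The shares of all features were 1.85%, 1.71%, 2.16% and 1.84%.

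**Figure D2:**
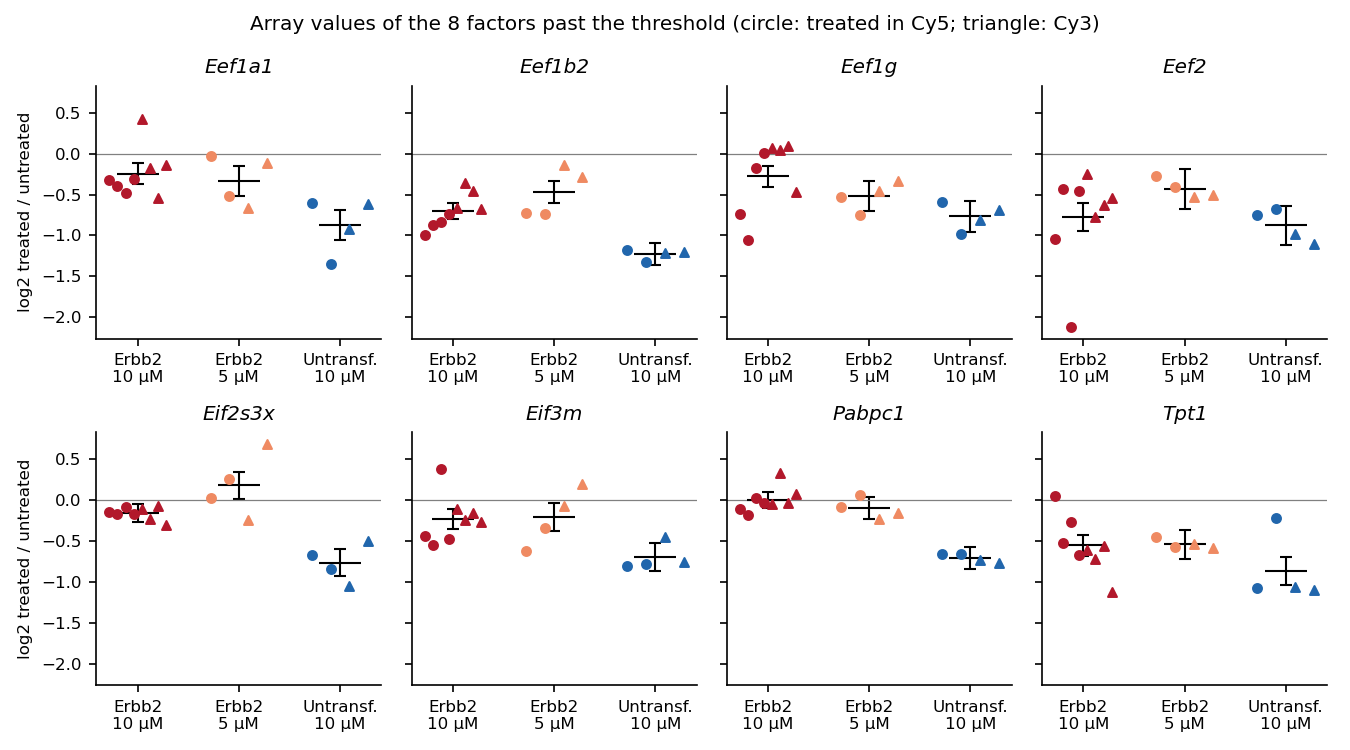
Log2 treated over untreated ratio of the 8 factors past the threshold in any group, 1 point per array (circle: treated RNA in Cy5, triangle: in Cy3), with the fitted mean ± SE as bars. The untransfected arrays of Eef1b2 (-1.32 to -1.17) lie below all Erbb2 arrays (-0.999 to -0.14), and those of Pabpc1 (-0.77 to -0.65) lie below all Erbb2 arrays (-0.23 to 0.33). The share of all features separated in this way was not counted.

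Of the 6 elongation factors tested, 2 fell in Erbb2 cells at 10 µM (median -0.26) and 3 in untransfected cells (median -0.82), as did 0.862% and 2.13% of all features. At 5 µM 0 passed by limma (median -0.38), and 2 had an unadjusted p under 0.05, as did 6.33% of all features. Eef1b2, the subunit that exchanges the nucleotide on eEF1A, gave the smallest p of all 37 factors in each group. Its log2 ratio lay between -0.999 and -0.36 with a median of -0.71 on the 8 arrays of Erbb2 cells at 10 µM. At 5 µM its arrays read -0.72, -0.73, -0.14 and -0.28, and in untransfected cells -1.17, -1.32, -1.21 and -1.20. All were below 0, and the untransfected arrays did not overlap with those of Erbb2 cells. The share of all features separated in this way, here and for Eef1a1, Pabpc1 and Eif2s3x below, was not counted. The fitted change was -0.70 ± 0.097 at 10 µM (SE, 8 arrays, 1.62-fold lower; limma, adjusted p = 0.00155), -0.47 ± 0.14 at 5 µM (4 arrays; adjusted p = 0.323) and -1.23 ± 0.14 in untransfected cells (4 arrays, 2.34-fold lower; adjusted p = 0.00019). By dye, arrays with treated RNA in Cy5 and in Cy3 averaged -0.86 and -0.54 in Erbb2 cells at 10 µM, -0.73 and -0.21 at 5 µM, and -1.25 and -1.21 in untransfected cells. Both calls of Eef1b2 held in each of the 16 fits that left out 1 array.

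Eef2, the GTPase that translocates the ribosome, ranged from -2.12 to -0.25 with a median of -0.58 in Erbb2 cells at 10 µM. Its arrays at 5 µM read -0.28, -0.41, -0.53 and -0.50, and those of untransfected cells -0.75, -0.68, -0.98 and -1.10. The ratio was negative on every array, and array 3 of Erbb2 cells at 10 µM stood far below the rest. The fitted change was -0.78 ± 0.17 (Erbb2, 10 µM; 1.72-fold lower; limma, adjusted p = 0.0377), -0.43 ± 0.24 (Erbb2, 5 µM; adjusted p = 0.926) and -0.88 ± 0.24 (untransfected; adjusted p = 0.0797). Eef2 was the mean of 4 probes, of which p16221 had 13 values and read -1.68 ± 0.81 (Erbb2, 10 µM), -0.01 ± 0.99 (Erbb2, 5 µM) and -0.02 ± 1.16 (untransfected). The other 3 probes, fitted singly, read -0.62 to -0.49 in Erbb2 cells at 10 µM, where 2 of them passed, and -1.11 to -0.88 in untransfected cells, where all 3 passed (limma, adjusted p = 0.00117 to 0.00317). With features that had a value on every array, which left p16221 out, Eef2 passed in all 3 groups by limma, at -0.57 (Erbb2, 10 µM; adjusted p = 0.000848), -0.57 (Erbb2, 5 µM; adjusted p = 0.0344) and -1.03 (untransfected; adjusted p = 6.1e-05). In that fit 3.46% (Erbb2, 10 µM), 1.02% (Erbb2, 5 µM) and 6.63% (untransfected) of 7148 features passed. Without array 3 of Erbb2 cells at 10 µM Eef2 read -0.53 in that group and still passed. The call at 10 µM was lost without any 1 of the 5 µM arrays, array 7 of its own group or array 1, 2 or 4 of the untransfected group.

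Eef1a1, which delivers aminoacyl-tRNA, ranged from -0.54 to 0.42 with a median of -0.32 in Erbb2 cells at 10 µM. At 5 µM its arrays read -0.03, -0.52, -0.66 and -0.12, and in untransfected cells -0.61, -1.35, -0.92 and -0.61. The untransfected arrays of Eef1a1 overlapped with 1 array of the 5 µM group and lay below all 8 of Erbb2 cells at 10 µM. The fitted changes were -0.24 ± 0.13 (Erbb2, 10 µM), -0.33 ± 0.19 (Erbb2, 5 µM) and -0.87 ± 0.19 (untransfected), of which the last passed (1.83-fold lower; limma, adjusted p = 0.0183), though not without untransfected array 2, 3 or 4. Eef1a1 was the mean of 2 probes, p9364 and p13569. Fitted singly they read -0.98 and -0.77 in untransfected cells, where only p9364 passed (limma, adjusted p = 0.0057 and 0.206). In Erbb2 cells they read -0.03 and -0.45 at 10 µM and 0.04 and -0.70 at 5 µM.

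Eef1g, a subunit of the same exchange complex, ranged from -1.06 to 0.09 with a median of -0.08 in Erbb2 cells at 10 µM. Its arrays read -0.53, -0.75, -0.46 and -0.34 at 5 µM, and -0.58, -0.99, -0.81 and -0.69 in untransfected cells. The groups overlapped, and 4 of the 8 arrays of Erbb2 cells at 10 µM were slightly above 0. The fitted changes were -0.28 ± 0.13 (Erbb2, 10 µM), -0.52 ± 0.19 (Erbb2, 5 µM) and -0.77 ± 0.19 (untransfected), of which the last passed (1.70-fold lower; limma, adjusted p = 0.0384). That call was lost without any 1 of the 5 µM arrays or of the untransfected arrays.

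Eef1d, the remaining exchange subunit, and Eef1a2, the eEF1A of muscle and neurons, passed in no group. Eef1d read -0.03 ± 0.096 (Erbb2, 10 µM), -0.20 ± 0.14 (Erbb2, 5 µM) and -0.46 ± 0.14 (untransfected) as the mean of 3 probes that disagreed in untransfected cells. There probes p14429 and p19108 fell by 0.997 ± 0.15 and 0.95 ± 0.15 (limma, adjusted p = 0.0015 and 0.00277), while p9394 read 0.56 ± 0.21 (adjusted p = 0.238). Eef1a2 read 0.37 ± 0.17 (Erbb2, 10 µM), 0.06 ± 0.24 (Erbb2, 5 µM) and 0.10 ± 0.24 (untransfected), the only elongation factor with a fitted value above 0 in all 3 groups. Transcripts of near-identical copies, such as Eef1a1 and Eef1a2 or processed pseudogenes, may bind the same cDNA probe, and probe sequences were not used here.

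**Figure D3:**
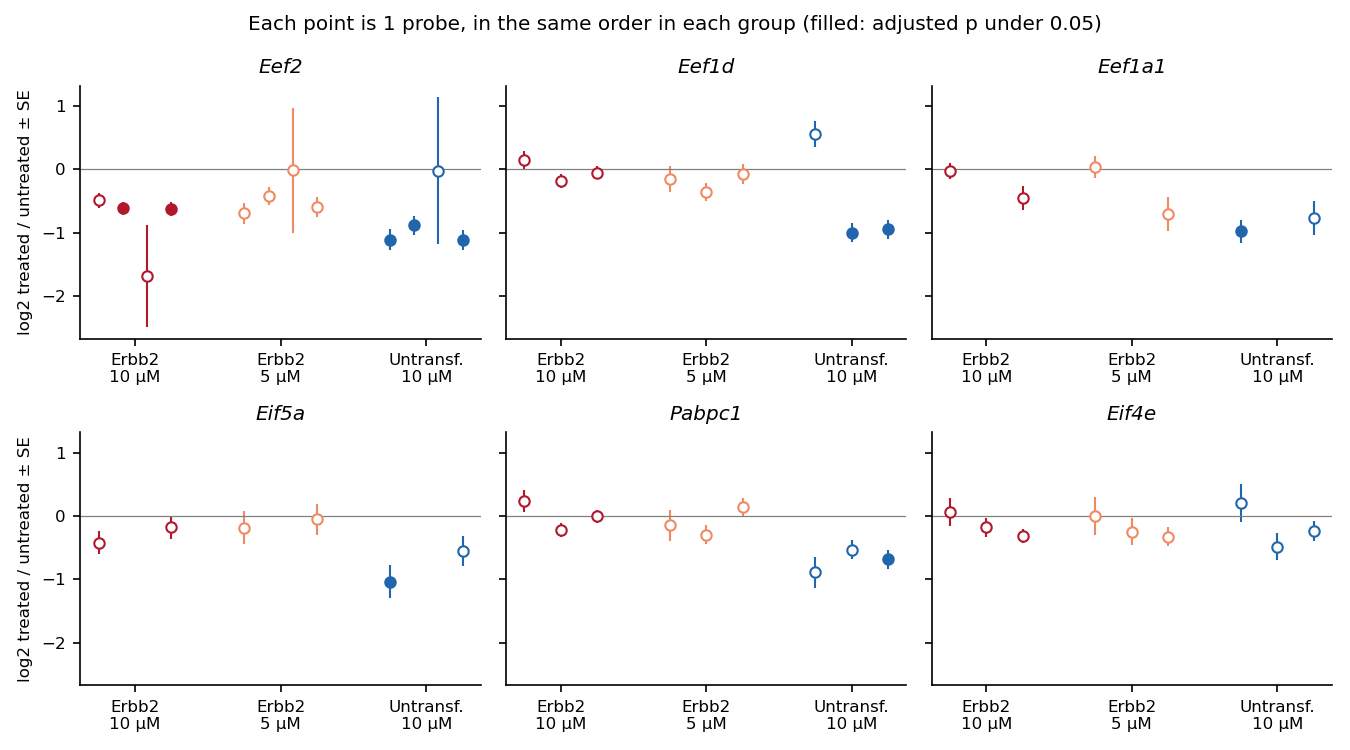
Fitted log2 treated over untreated ratio ± SE of each single probe (points, in the same probe order in each group; filled: adjusted p under 0.05) for 6 factors with several probes. Probe p16221 of Eef2 has SEs of 0.81 to 1.16, and probe p9394 of Eef1d stands at 0.56 in untransfected cells, against -0.997 and -0.95 for the other probes.

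Tpt1, which binds the elongation factors and is known as the translationally controlled tumour protein, had ratios of -1.12 to 0.05 with a median of -0.58 in Erbb2 cells at 10 µM. At 5 µM its arrays read -0.45, -0.57, -0.54 and -0.59, and in untransfected cells -1.07, -0.22, -1.07 and -1.10. Apart from array 1 of Erbb2 cells at 10 µM all were below 0, and the groups overlapped. The fitted changes were -0.55 ± 0.12 (Erbb2, 10 µM; 1.47-fold lower; limma, adjusted p = 0.045), -0.54 ± 0.18 (Erbb2, 5 µM; adjusted p = 0.471) and -0.87 ± 0.18 (untransfected; 1.82-fold lower; adjusted p = 0.0133). The first call was lost without any 1 of the 5 µM arrays, of arrays 2 to 8 of its own group, or of untransfected arrays 3 and 4, and the last without untransfected array 1, 3 or 4.

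Pabpc1, which covers the poly(A) tail and bridges it to the cap complex, was near 0 in Erbb2 cells and fell in untransfected cells. It ranged from -0.18 to 0.33 with a median of -0.03 in Erbb2 cells at 10 µM and read -0.09, 0.06, -0.23 and -0.15 at 5 µM. In untransfected cells its 4 arrays read -0.65, -0.66, -0.73 and -0.77, below every Erbb2 array. The fitted changes were 0.00 ± 0.095 (Erbb2, 10 µM), -0.10 ± 0.14 (Erbb2, 5 µM) and -0.70 ± 0.14 (untransfected), of which the last passed (1.63-fold lower; limma, adjusted p = 0.00894), though not without untransfected array 4. All 3 Pabpc1 probes were below 0 there, at -0.89, -0.53 and -0.69, and the third passed singly (limma, adjusted p = 0.017). In Erbb2 cells at 10 µM the same probes read 0.24, -0.22 and -0.004, so the value near 0 averages opposed probes, none of which passed.

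Of the 27 initiation factors tested, 0 passed in Erbb2 cells at either dose by limma (5 at 10 µM and 2 at 5 µM had an unadjusted p under 0.05, as did 10.8% and 6.33% of all features). In untransfected cells 2 of them fell, as did 2.13% of all features. The medians of the 27 factors were -0.22 (Erbb2, 10 µM), -0.16 (Erbb2, 5 µM) and -0.25 (untransfected). Eif2s3x, the subunit of eIF2 that binds the initiator tRNA, ranged from -0.30 to -0.07 with a median of -0.15 in Erbb2 cells at 10 µM, read 0.03, 0.26, -0.24 and 0.69 at 5 µM, and -0.67, -0.84, -1.04 and -0.50 in untransfected cells. The untransfected arrays lay below all Erbb2 arrays, though the difference between the lines did not pass in the fit reported here. The fitted changes were -0.16 ± 0.11 (Erbb2, 10 µM), 0.18 ± 0.16 (Erbb2, 5 µM) and -0.76 ± 0.16 (untransfected), of which the last passed (1.70-fold lower; limma, adjusted p = 0.017), though not without untransfected array 1, 2 or 3. The other 3 measured eIF2 and eIF2B subunits passed in no group, with values from -1.19 (Eif2b4 at 5 µM) to 0.15. The 5 µM arrays of Eif2b4 read -0.21, -0.62, -3.91 and -0.03, and without array 3 its value was -0.27 ± 0.35.

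All 9 measured subunits of eIF3 had fitted values below 0 in Erbb2 cells at 10 µM, from -0.45 to -0.05, 8 did at 5 µM (median -0.23) and 7 did in untransfected cells (median -0.25). Eif3m ranged from -0.54 to 0.38 with a median of -0.26 in Erbb2 cells at 10 µM, read -0.63, -0.34, -0.07 and 0.20 at 5 µM, and -0.81, -0.78, -0.45 and -0.76 in untransfected cells. The groups overlapped. Only the last fitted change of Eif3m, -0.70 ± 0.17, passed (1.62-fold lower; limma, adjusted p = 0.0405), though not without 5 µM array 2 or 3 or any 1 of the untransfected arrays. Eif3c, a core subunit, was below 0 on every array and read -0.32 ± 0.11 (Erbb2, 10 µM), -0.53 ± 0.16 (Erbb2, 5 µM) and -0.61 ± 0.16 (untransfected), with adjusted p = 0.0549 by limma in the last. Eif3a, the largest subunit, read -0.40 ± 0.15 (Erbb2, 10 µM), 0.14 ± 0.21 (Erbb2, 5 µM) and -0.19 ± 0.21 (untransfected), and Eif3k read -0.41 ± 0.15 (Erbb2, 10 µM), -0.04 ± 0.21 (Erbb2, 5 µM) and -0.19 ± 0.21 (untransfected). Eif3e read -0.05 ± 0.096 (Erbb2, 10 µM), -0.09 ± 0.14 (Erbb2, 5 µM) and -0.25 ± 0.14 (untransfected), and none of these 3 passed at gene level. The untransfected value of Eif3a averages opposed probes, p1879 at -0.72 ± 0.14, which passed singly (limma, adjusted p = 0.00917), and p11202 at 0.34 ± 0.36.

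The 7 measured factors with an Eif4 symbol passed in no group, with medians of -0.15 (Erbb2, 10 µM), 0.03 (Erbb2, 5 µM) and -0.21 (untransfected). The cap-binding protein Eif4e read -0.15 ± 0.13 (Erbb2, 10 µM), -0.19 ± 0.18 (Erbb2, 5 µM) and -0.17 ± 0.18 (untransfected). The helicase Eif4a1 was measured poorly, with 6 of 8 values in Erbb2 cells at 10 µM from -2.34 to 1.35, and read -0.33 ± 0.45 (Erbb2, 10 µM), 0.54 ± 0.54 (Erbb2, 5 µM) and -1.13 ± 0.54 (untransfected). The scaffold Eif4g3 was above 0 on all 8 arrays of Erbb2 cells at 10 µM, from 0.03 to 1.23, and read 0.52 ± 0.17 (Erbb2, 10 µM; limma, adjusted p = 0.249), 0.10 ± 0.25 (Erbb2, 5 µM) and -0.21 ± 0.25 (untransfected). Its relative Eif4g2, which lacks the contact with the cap-binding protein, read 0.63 ± 0.41 (Erbb2, 10 µM), 0.98 ± 0.54 (Erbb2, 5 µM) and -0.46 ± 0.54 (untransfected). Neither scaffold passed in any group, and the 5 µM value of Eif4g2 was 0.21 without array 2.

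Eif5, which triggers GTP hydrolysis by eIF2 at the start codon, was below 0 on every array of both Erbb2 groups. It read -0.39 ± 0.14 (Erbb2, 10 µM), -0.19 ± 0.20 (Erbb2, 5 µM) and -0.20 ± 0.20 (untransfected) without passing, and 1 of its 2 probes, p10436, passed singly in Erbb2 cells at 10 µM at -0.69 (limma, adjusted p = 0.0105). Eif5a, which helps ribosomes through difficult peptide bonds, ranged from -1.65 to 0.05 in Erbb2 cells at 10 µM and read -0.12, 0.14, -0.62 and 0.10 at 5 µM. Its untransfected arrays read -0.64, -1.32, -0.68 and -0.56. The fitted changes were -0.39 ± 0.17 (Erbb2, 10 µM), -0.12 ± 0.24 (Erbb2, 5 µM) and -0.80 ± 0.24 (untransfected; limma, adjusted p = 0.126), and 1 of its 2 probes, p8554, passed there at -1.04 ± 0.26 (adjusted p = 0.0424). Eif6, which keeps the ribosomal subunits apart, read 0.21 ± 0.14 (Erbb2, 10 µM), 0.10 ± 0.20 (Erbb2, 5 µM) and -0.37 ± 0.20 (untransfected). The methyltransferase Eef1aknmt, which modifies eEF1A, read 0.08 ± 0.13 (Erbb2, 10 µM), 0.51 ± 0.19 (Erbb2, 5 µM; limma, adjusted p = 0.546) and -0.28 ± 0.19 (untransfected). None of these passed at gene level.

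**Figure D4:**
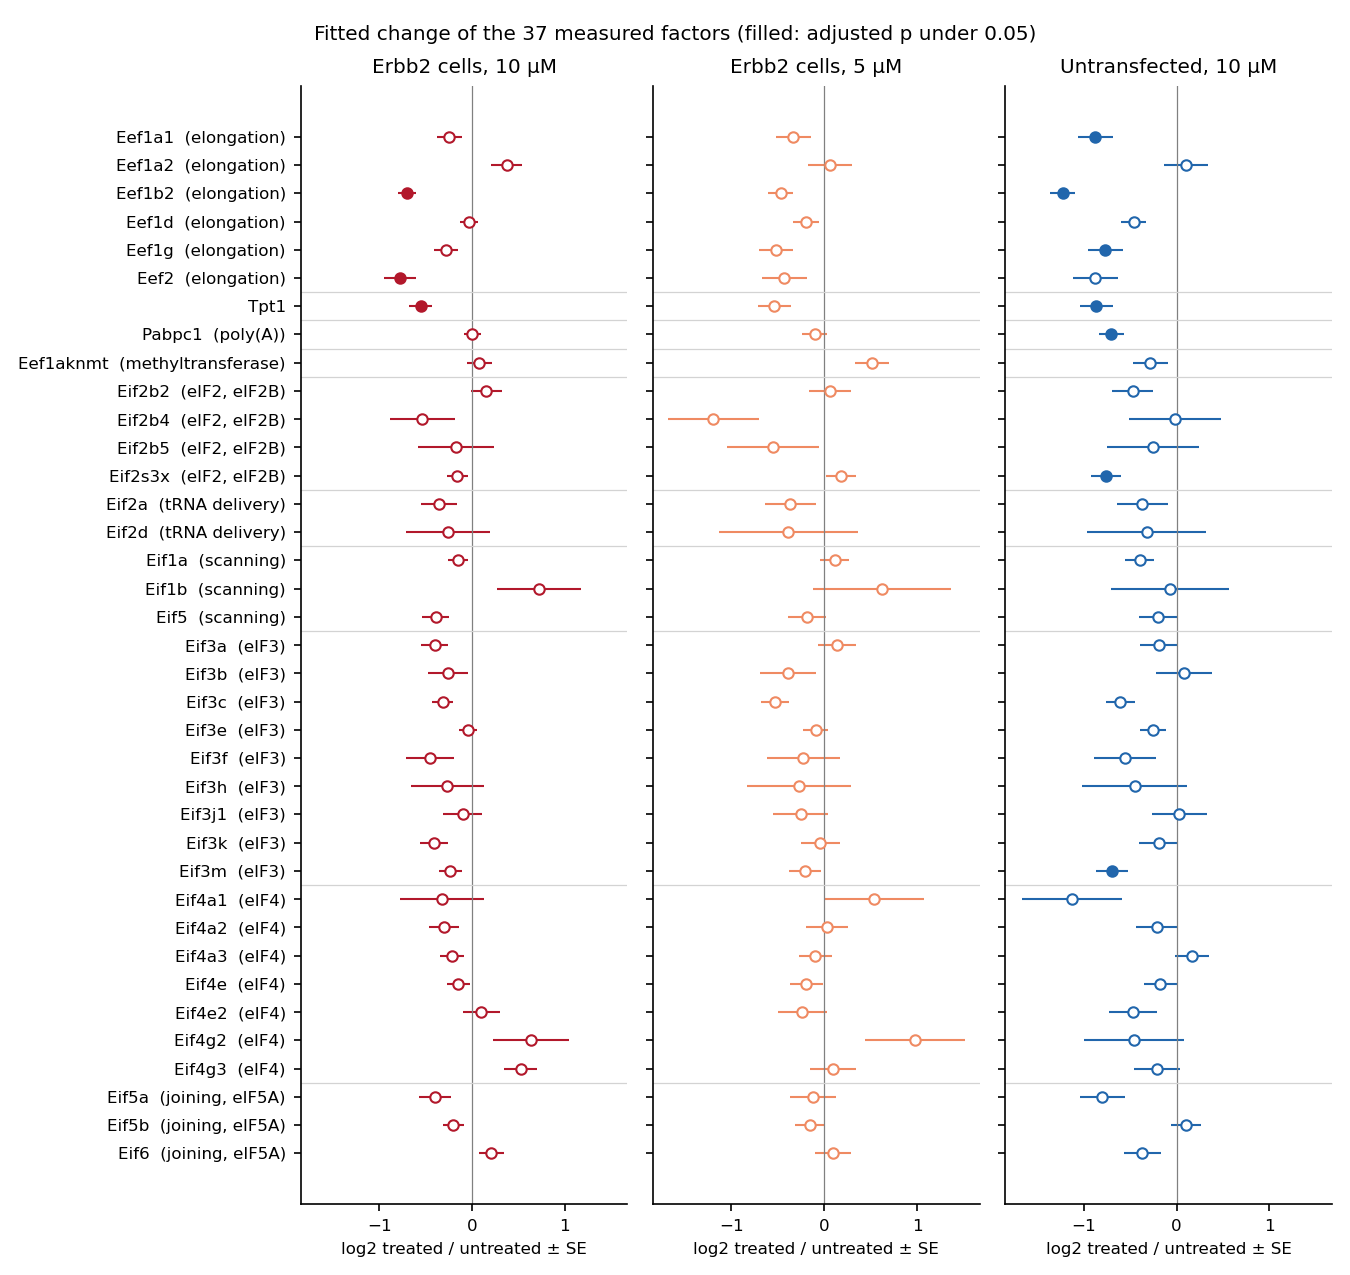
Fitted log2 treated over untreated ratio ± SE of the 37 tested factors, sorted by role, in each group (filled: adjusted p under 0.05). Filled points number 3 (Erbb2, 10 µM), 0 (Erbb2, 5 µM) and 7 (untransfected) and all lie below 0, and the elongation factors other than Eef1a2 lie left of 0 in every group.

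The design also allowed the doses to be compared in Erbb2 cells, where untreated cells of that line were the reference of both groups. Whether both groups used the same untreated RNA is unstated. No factor passed by limma, and 0% of all features passed. At an unadjusted p under 0.05 there were 0 factors and 4.33% of all features. The median difference, 10 µM minus 5 µM, was 0.01. For Eef1b2 it was -0.23 (95% interval -0.59 to 0.13), for Eef2 -0.35 (-0.99 to 0.29), for Tpt1 -0.01 (-0.48 to 0.45) and for Eif2s3x -0.34 (-0.76 to 0.08). The smallest p was that of Eif3a, at -0.54 ± 0.25. These intervals give the precision of the dose comparison with 8 and 4 arrays.

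The drug response of Erbb2 cells was set against that of untransfected cells at 10 µM. No factor passed by limma, and 0.813% of all features did. At an unadjusted p under 0.05 there were 10 factors and 9.72% of all features. The difference, Erbb2 minus untransfected, was above 0 for 28 of 37 factors with a median of 0.28, against -0.028 over all features, and it was above 0 for all 6 elongation factors. Pabpc1 had the smallest p, at 0.71 ± 0.17 (95% interval 0.35 to 1.06; limma, adjusted p = 0.074), and passed where features had a value on every array (adjusted p = 0.0121). In that last fit 2.64% of 7148 features passed. The 3 probes of Pabpc1 had values on all 16 arrays, so its ratios were the same in both fits. Fitted singly, these probes read 1.13, 0.31 and 0.68, and none passed (limma, adjusted p = 0.12, 0.63 and 0.12). The difference was 0.63 ± 0.23 for Eef1a1 (adjusted p = 0.323), 0.60 ± 0.20 for Eif2s3x (adjusted p = 0.266) and 0.53 ± 0.17 for Eef1b2 (adjusted p = 0.245). The 2 probes of Eef1a1 read 0.95 and 0.32, and neither passed singly. For Eef1d it was 0.43 ± 0.17 (adjusted p = 0.369), and 2 of its 3 probes passed singly, at 0.82 ± 0.18 and 0.90 ± 0.19 (limma, adjusted p = 0.0489 and 0.036), while the third, p9394, read -0.41 ± 0.25 (adjusted p = 0.643). With the other dye for the untransfected arrays these differences turn, and 10 factors pass as lower in Erbb2 cells, where 2.83% of all features pass.

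**Figure D5:**
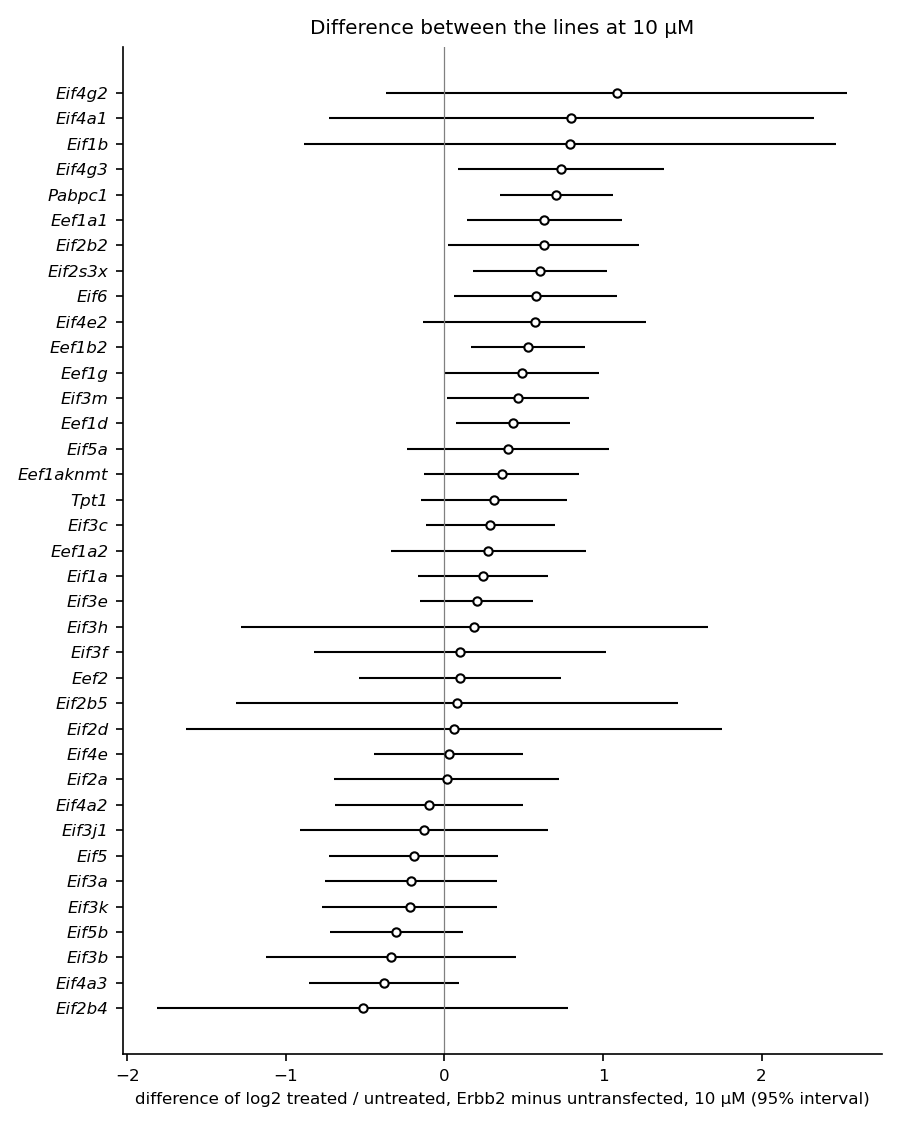
Difference of the fitted log2 treated over untreated ratios between the lines at 10 µM, Erbb2 minus untransfected, with 95% intervals (bars), for the 37 tested factors sorted by size. The difference is above 0 for 28 factors, and the interval of Pabpc1 runs from 0.35 to 1.06.

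Other genes of the translation apparatus give the setting of these values. Of 54 cytosolic ribosomal proteins tested, 17 fell in Erbb2 cells at 10 µM and 22 in untransfected cells, as did 0.862% and 2.13% of all features. At 5 µM 0 passed, and 20 had an unadjusted p under 0.05 by limma, as did 6.33% of all features. The medians of the ribosomal proteins were -0.29 (Erbb2, 10 µM), -0.29 (Erbb2, 5 µM) and -0.61 (untransfected). Rpl5, a protein of the large subunit, fell by 0.81 ± 0.10 at 10 µM in Erbb2 cells and by 1.10 ± 0.15 in untransfected cells, and Rps14, of the small subunit, by 0.64 ± 0.093 and 1.07 ± 0.13 (limma, adjusted p = 0.00092, 0.000658, 0.00233 and 0.000358). Of 17 ribosome assembly genes, Npm1, the nucleolar chaperone nucleophosmin, fell by 0.68 ± 0.10 and 0.63 ± 0.14 in the same groups (limma, adjusted p = 0.00261 and 0.0251). Of 17 aminoacyl-tRNA synthetases 2 fell in untransfected cells, Eprs (log2 -1.42 ± 0.16) and Yars (-1.38 ± 0.29) (limma, adjusted p = 0.000177 and 0.0155). In either Erbb2 group 0 synthetases passed. An unadjusted p under 0.05 was found for 1 in each, and for 10.8% (10 µM) and 6.33% (5 µM) of all features. None passed in any group among 5 termination, 4 poly(A) and cap binding, 11 regulatory, 6 mitochondrial and 12 nascent chain genes. At an unadjusted p under 0.05 by limma there were at most 4 in a group, the nascent chain genes of untransfected cells (median -0.26). In that group the termination, poly(A) and cap binding, regulatory and mitochondrial lists had 1, 2, 2 and 0, against 11.5% of all features.

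The 6 factors left out by the filter were Eef1akmt1, Eif1ax, Eif2b1, Eif2b3, Eif3i and Eif3l. Each had a value on 1 to 3 untransfected arrays. Their single values ran from -5.48 (Eif2b3) to 4.61 (Eif3l), both in Erbb2 cells at 10 µM, and no fold change is given for them.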

How the data were processed

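RNA of treated and untreated cells was compared on 16 cDNA arrays with 2 channels. The values, read here as log2 ratios, were deposited by the authors as signed ratios of the channels, with array medians of -0.053 to 0.034. Log base, image analysis, background correction and normalization are unstated in the sources used here, and intensities were not used. A value repeated at the top of each array (15.4 to 16.6) was set to missing. Ratios were read as Cy5 over Cy3 and turned to treated over untreated. Probes needed a value on 3 of 4 or 6 of 8 arrays of each group and on 1 array of each dye arrangement, which kept 14813 probes, and probes of a gene were averaged.

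One fit in limma 3.58.1 (R 4.3.3) held all 16 arrays, a term for each group and a shared dye term. Tests were two-sided, with Benjamini-Hochberg adjustment over 12420 features. The fit was tested on simulated data: of 50 features seeded per size, a log2 change of 1 was recovered for 23 (Erbb2 cells at 10 µM), 12 (at 5 µM) and 10 (untransfected cells), and one of 0.5 for 3, 0 and 0.

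The factors and gene lists were chosen with earlier results of these data known. Named were all factors past the threshold, the 5 smallest p of each comparison, a set of fixed names and up to 4 called genes of each other list. Factors named beyond this rule (Eef1a2, Eif2b3, Eif2b4, Eif3l and Eif5) were chosen after their values were seen. Sequences and coordinates are from RefSeq (GRCm38.p6). The alternatives tried are given in the closing section.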

Additional observations from a re-analysis of the deposited data

Results flagged for a closer look

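Of 60 sets of array values checked (20 named factors in 3 groups), 9 held an array that stood apart from the rest by Dixon's test at the 95% level, where chance gives about 1 in 20. Array 3 of Erbb2 cells at 10 µM read -2.12 for Eef2, against -1.04 to -0.25 on the other arrays, and 0.38 for Eif3m, against -0.54 to -0.11. Array 6 of that group read -0.999 for Eif3c, against -0.47 to -0.07, and -1.65 for Eif5a, against -0.49 to 0.05. Array 5 read 0.42 for Eef1a1, against -0.54 to -0.14. These 3 arrays had the widest interquartile range of log ratios in their group. Without them 1 factor (Eef1b2) and 0.446% of all features passed in Erbb2 cells at 10 µM.

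At 5 µM array 2 read 2.67 for Eif4a1, against -0.42 to 0.07 on the others. In untransfected cells array 3 read -0.45 for Eif3m, against -0.81 to -0.76, array 2 read -1.32 for Eif5a, against -0.68 to -0.56, and array 2 read -0.22 for Tpt1, against -1.10 to -1.07. No factor passed the test of a difference between groups in the fit reported above.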

How the results depend on the processing

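The counts of called factors (Erbb2 cells at 10 µM 3, at 5 µM 0, untransfected cells 7) changed with the direction given to the ratios. With no array turned for its dye, as would apply if arrays were turned before deposit, 0 passed in the groups (features 0.0161%, 0% and 0.0322%). Tpt1 then read 0.20 in Erbb2 cells at 10 µM, and Eif2s3x, Pabpc1 and Tpt1 read 0.0085, 0.045 and 0.22 in untransfected cells. The medians of the factors were 0.0084, 0.018 and -0.031. With the other dye on the untransfected arrays 7 factors rose there (Eef1a1 by 0.87, Eef1b2 1.23, Eef1g 0.77, Eif2s3x 0.76, Eif3m 0.70, Pabpc1 0.70, Tpt1 0.87; median 0.37), and the difference between the lines called 10 as lower (Eef1a1 -1.12, Eef1b2 -1.93, Eef1g -1.04, Eef2 -1.66, Eif2s3x -0.92, Eif3c -0.92, Eif3m -0.93, Eif5a -1.19, Pabpc1 -0.70, Tpt1 -1.42). With each group fitted on its own arrays, and so on fewer arrays, 0 passed (0.177%, 0% and 0% of all features). Against a 1.2-fold change 0, 0 and 1 passed (features 0.266%, 0.0322% and 1.24%). With values on every array 3, 1 and 11 of 29 factors passed and 1 (Pabpc1) in the difference between the lines, but the shares of all features called rose too, to 3.46%, 1.02%, 6.63% and 2.64%. With at least 2 arrays 1, 0 and 5 passed (features 0.753%, 0.0342% and 1.95%). With arrays scaled to equal spread 2, 0 and 11 passed (features 1.08%, 0.37% and 3.54%), with 1 (Pabpc1) in that difference (1.13%). Probes were also fitted singly, and the probe of smallest p was kept for each gene, a choice that favours genes with several probes. So taken, 4, 0 and 11 passed (features 1.38%, 0.129% and 3.37%), with 1 (Eef1d) in the difference between the lines (1.10%). Without the 3 widest arrays 1, 0 and 10 passed (features 0.446%, 0.175% and 3.11%). With the median over probes, chosen after the data were seen, 3, 0 and 9 passed (features 1.29%, 0.209% and 2.82%). Leaving out 1 array gave 1 to 3, 0 to 0 and 2 to 10 (features 1.05% to 1.38%, 0.0403% to 0.254% and 1.71% to 3.42%). It gave 0 to 0 in both differences (features 0% between the doses and 0.447% to 0.995% between the lines). With a replicate block on arrays 1 to 4 of each group 0, 0 and 1 (Eef1b2) passed (features 0.00805%, 0.0161% and 0.741%), on fewer arrays. Arrays of the same number in different groups had deviations from their group mean that correlated at -0.0281 to 0.0383 over 12 pairs. Their residuals after the dye term correlated at -0.107 to 0.133. Whether the numbers pair the arrays was not settled. Apart from the causes named, the cause of the changed counts was not tested. Without a dye term, with robust variances, with the top value kept or centred on other features, 2 to 3, 0 and 6 to 8 passed. In each group the shares of all features called in these fits lay within the ranges given above for leaving out an array. Outside the changes of direction the medians stayed at -0.26 to -0.15, -0.20 to -0.13 and -0.44 to -0.37 in 28 alternatives, and with the probe of smallest p for each gene they were -0.26, -0.23 and -0.45. Signal over background is unknown, and in simulated data a log2 change of 0.5 was recovered for 0 of 50 features with 4 arrays.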
